A study of Homo sapiens with 6 samples.

Results

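YAP and TAZ are coactivators that carry the output of the Hippo pathway to DNA, and the data here are the RNA levels of 10 genes of that output: the coactivators YAP1 and WWTR1 (the gene of TAZ), the DNA-binding partners TEAD1, TEAD3 and TEAD4, and the target genes CCN1, CCN2, ANKRD1, AMOTL2 and LATS2. The genes were taken by name from a table of 60612 genes. U87 human glioblastoma cells had received lentivirus with a Scramble control shRNA (NC, 3 libraries) or with shRNA against PRMT6 (shPRMT6, 3 libraries). Total RNA was sequenced. All cells were cultured in DMEM with serum, and according to the methods transduced cells were selected with puromycin to give stable lines. PRMT6 is an arginine methyltransferase of histones and other proteins, and the comparison asked how its knockdown changed gene expression. The methods call the samples independent replicates of U87 cells, so the p-values measure the spread between replicates of a single cell line. The paper lists 3 PRMT6 shRNAs, shPRMT6 #1, #2 and #3. The shPRMT6 libraries are labelled shRNA-1, shRNA-2 and shRNA-3, and the NC libraries are numbered in the same way. Which shRNA each library carried, and whether it was the same in all 3, is not given in the sources used here. If the shRNAs differed, replicate and shRNA cannot be told apart within shPRMT6, and the spread there includes both.

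In the Hippo pathway, the kinases MST1 and MST2 (genes STK4 and STK3) activate LATS1 and LATS2, which phosphorylate YAP and TAZ and keep them out of the nucleus. Unphosphorylated YAP and TAZ have no DNA-binding domain of their own and act through the TEAD factors, which recognise a short motif in promoters and enhancers. Among their best known targets, CCN1 and CCN2 encode secreted matrix proteins, ANKRD1 encodes a nuclear ankyrin repeat protein, and AMOTL2 and LATS2 encode proteins that restrain YAP in turn. In glioblastoma, TAZ is known as a regulator of the mesenchymal state. The pathway acts largely through phosphorylation and localisation of its proteins, which RNA levels do not measure.

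The sequence that ties the factors to the targets is the TEAD motif GGAATG, which was searched on both strands in RefSeq promoters (250 bases before to 50 bases after each start, GRCh38.p14). Promoters were matched for 7 of the 10 genes, and TEAD1, TEAD4 and CCN1 had no entry. Of the 9 promoters of these 7 genes (WWTR1 and AMOTL2 have 2 starts each), 5 held the motif, against 14.0% of all 35116 promoters and 11.6% of the 17068 promoters of tested genes. Each match is a match of letters and no measure of binding. The windows below are printed because they mark where TEAD factors could contact the target genes whose RNA is reported, and each reads along the strand of its gene with the motif in capitals. The CCN2 promoter (minus strand) held 3 copies, starting 169, 104 and 95 bases before the transcription start, within chr6:131951524-131951553, chr6:131951459-131951488 and chr6:131951450-131951479.
CCN2, 169 bases before the start: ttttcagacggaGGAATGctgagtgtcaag
CCN2, 104 bases before the start: ggaaggtggggaGGAATGcgaggaatgtcc
CCN2, 95 bases before the start: ggaggaatgcgaGGAATGtccctgtttgtg
The ANKRD1 promoter (minus strand) held 2 copies, in chr10:90921290-90921319 and chr10:90921198-90921227.
ANKRD1, 220 bases before the start: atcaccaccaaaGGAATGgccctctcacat
ANKRD1, 128 bases before the start: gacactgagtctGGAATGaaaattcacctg
AMOTL2 held it in reverse orientation at the second of its starts (chr3:134374499-134374528, minus strand), LATS2 just inside its transcript (chr13:21061560-21061589, minus strand) and YAP1 once (chr11:102110273-102110302, plus strand).
AMOTL2, 69 bases before the start: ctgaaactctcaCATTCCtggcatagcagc
LATS2: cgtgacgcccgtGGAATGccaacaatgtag
YAP1, 162 bases before the start: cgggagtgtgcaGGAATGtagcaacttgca
Of all promoters, 1.37% held at least 2 copies, as those of CCN2 and ANKRD1 did.

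The libraries held 56388161 to 75887696 counts, and the 10 most abundant genes took 8.28% to 10.0% of them. PRMT6 itself was at 9.33, 7.97 and 7.19 CPM in NC and at 3.57, 4.58 and 5.24 CPM in shPRMT6 (log2 fold change -0.87, SE 0.187, adjusted p = 0.0225; every p in the text comes from the quasi-likelihood F-test of edgeR, adjusted by Benjamini-Hochberg over all genes tested, unless another test is named), a call that was lost without NC replicate 1 (adjusted p = 0.0613), shPRMT6 replicate 1 (0.0588) or shPRMT6 replicate 2 (0.0713). PRMT6 also missed the threshold in edgeR with a replicate block (adjusted p = 0.0803) or without both libraries numbered 2 (0.120). It did so too with limma on unfiltered log2(FPKM + 1) (adjusted p = 0.158). CPM, the scale of all levels below unless FPKM is named, are counts over the library total after TMM scaling, not divided by gene length. Of the markers of a glioblastoma line, VIM, CD44 and NES were abundant, while SOX2 and GFAP were below 1 CPM on average in both groups. OLIG2 was low as well, at a mean of 2.55 CPM in NC and 2.83 CPM in shPRMT6. Of 4 immune cell markers, AIF1 and CD3E had no count in any library. For each library taken alone, no count allows an expected count of up to 3. PTPRC had 4 counts in shPRMT6 replicates 2 and 3 and none elsewhere. CD68 was at 148 to 256 CPM in NC and 144 to 316 CPM in shPRMT6, with overlapping groups. The summed level of 4 neuron markers ran from 25.8 to 29.1 CPM in NC and from 22.9 to 27.3 CPM in shPRMT6, with 0 called of 3 tested by edgeR (0 at an unadjusted p under 0.05). This sum was mostly SNAP25 and SYT1 (means of 19.5 and 7.41 CPM in NC), while RBFOX3 and STMN2 averaged 0.328 and 0.0477 CPM there. The summed level of 4 epithelial markers ran from 10.9 to 15.9 CPM in NC and from 3.66 to 6.94 CPM in shPRMT6, and 1 of the 4 (CDH1) passed the test, downward. Most of this sum was KRT18 and KRT19 (means of 8.11 and 3.39 CPM in NC), while CDH1 averaged 0.642 CPM there. The summed level of 4 endothelial markers ran from 2.61 to 3.70 CPM in NC and from 4.02 to 5.96 CPM in shPRMT6, with 0 called of 2 tested by edgeR (1 at an unadjusted p under 0.05). It was mostly PECAM1, at a mean of 2.89 CPM in NC and 4.70 CPM in shPRMT6. The part of the markers of other cells in the results below was not tested.

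WWTR1, TEAD4 and AMOTL2 fell in shPRMT6, by 0.38, 0.55 and 0.77 on the log2 scale, and CCN1 and CCN2 lay lower in every shPRMT6 library than in every NC library without passing the threshold. YAP1, TEAD1, TEAD3 and LATS2 had overlapping groups. ANKRD1 was close to undetected. Of the 10 genes, 9 passed the filter on low counts, 3 were called at an adjusted p under 0.05, and all 3 were lower, where 18.6% of all 18106 genes tested were called and 9.06% were called lower. The groups did not overlap, with shPRMT6 lower, for 5 of the 9, against 19.9% of all genes tested (40.2% in either direction). The median log2 fold change of the 9 was -0.32, against -0.01 over all genes tested. Of the 9 values, 8 were below 0, as were 9250 of all 18106 genes tested. Among these 8, TEAD3 (-0.17) and LATS2 (-0.06) changed sign in fits that left out 1 library. None of the 9 changed by more than 1 on the log2 scale at an unadjusted p under 0.05, the rule that the methods state and that 5.92% of all genes met, while 5 of the 9 had an unadjusted p under 0.05, against 32.6% of all genes. In bulk RNA, fewer cells with a transcript and less of it per cell cannot be told apart.

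**Figure D1:**
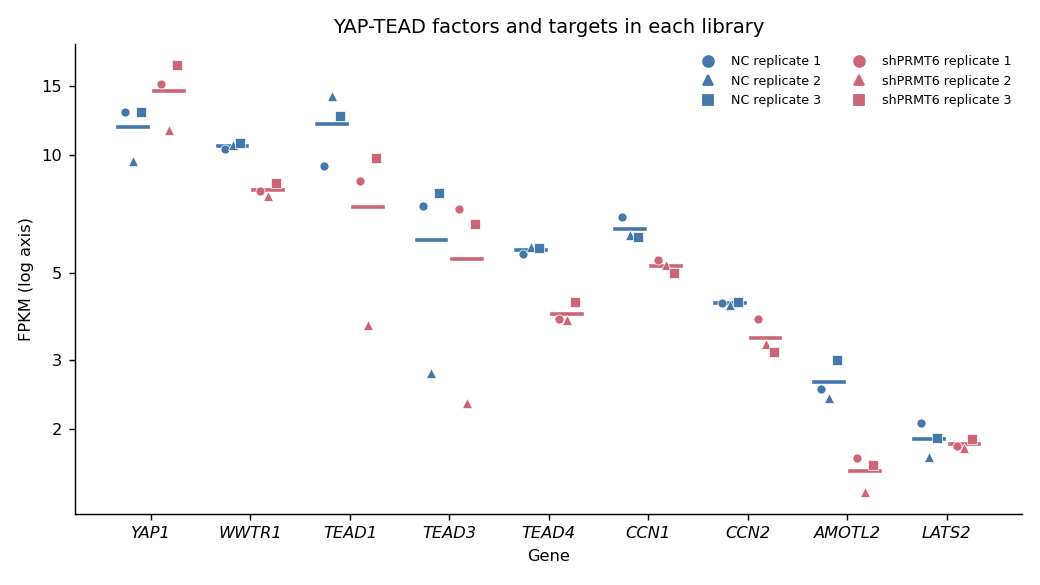
FPKM (log axis) of the 9 tested genes in each library, with a symbol for each replicate number and a bar at the mean of each group. WWTR1, TEAD4, CCN1, CCN2 and AMOTL2 show no overlap between NC and shPRMT6, while TEAD3 is low in replicate 2 of both groups (2.78 and 2.33 FPKM); ANKRD1 is left out because a library had no count.

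The coactivators came first in the comparison. YAP1 (ENSG00000137693, chromosome 11 of GRCh38, 102110461 to 102233423, plus strand) was at 97.8, 72.6 and 95.6 CPM in the NC libraries (replicates 1, 2 and 3 in this order, here and below) and at 114, 86.7 and 126 CPM in the shPRMT6 libraries. Replicate 2 was the lowest of its group in both groups, and the groups overlapped. The log2 fold change of YAP1 was 0.30 (SE 0.171, 95% interval from -0.11 to 0.70), short of the threshold (edgeR, adjusted p = 0.285).

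WWTR1 (ENSG00000018408, chromosome 3, 149517235 to 149736714, minus strand) was at 104, 105 and 106 CPM in NC and at 80.2, 78.0 and 83.7 CPM in shPRMT6. The spread within each group was a few CPM, and every shPRMT6 library lay below every NC library. WWTR1 fell to 76.7% of NC, with a log2 fold change of -0.38 (SE 0.0561, adjusted p = 0.00620, edgeR). It was called in each of the fits that left out 1 library. With both libraries numbered 2 left out together, the log2 fold change was -0.36 and missed the threshold (adjusted p = 0.0562).

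The 2 coactivators were also compared with each other. The log2 ratio of YAP1 to WWTR1 CPM was -0.09, -0.54 and -0.15 in NC and 0.50, 0.15 and 0.59 in shPRMT6, so that every shPRMT6 library had the higher ratio. The difference was 0.67, a 1.60-fold higher ratio (p = 0.1, two-sided exact permutation test over 3 libraries against 3, the smallest p that this design allows). On the FPKM scale, which is per transcript length and so allows levels of different genes to be compared, YAP1 made up 52.5% ± 4.20 of the sum of both in NC and 63.8% ± 3.78 in shPRMT6 (SD, n = 3). The sum itself was 22.4 ± 1.85 FPKM in NC and 22.8 ± 3.04 FPKM in shPRMT6 (SD, n = 3), with overlapping groups (p = 0.9, two-sided exact permutation test).

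**Figure D2:**
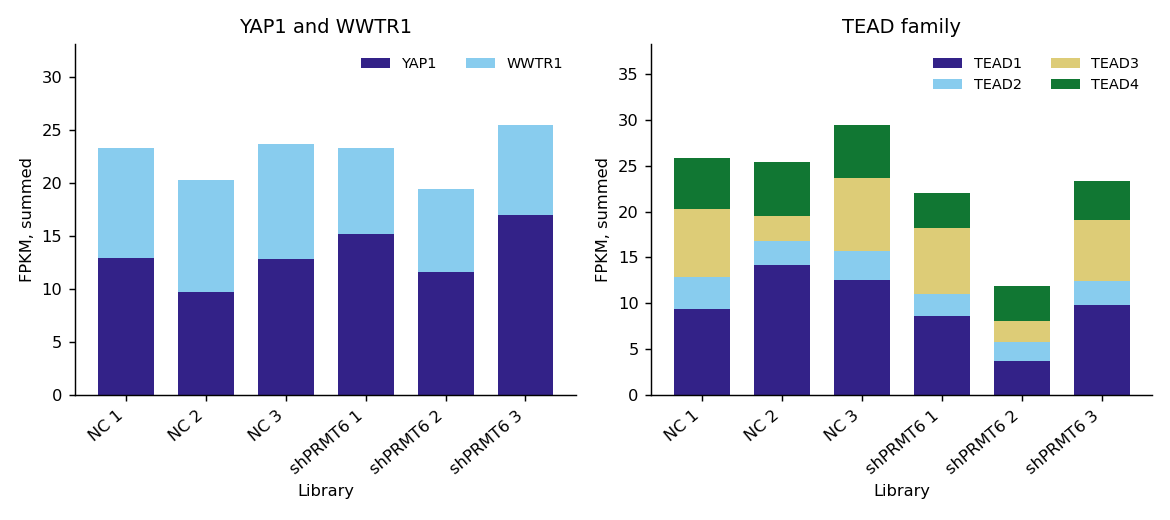
Summed FPKM of the coactivators YAP1 and WWTR1 (left) and of the TEAD family (right) in each library, as stacked bars from 0. The coactivator sum lies between 19.5 and 25.5 FPKM in all 6 libraries, and the TEAD sum between 25.4 and 29.5 FPKM in NC and between 11.9 and 23.3 FPKM in shPRMT6.

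Among the TEAD factors, TEAD4 passed the test. TEAD4 (ENSG00000197905, chromosome 12, 2959330 to 3040673, plus strand) was at 15.3, 15.8 and 15.5 CPM in NC and at 10.3, 10.2 and 11.4 CPM in shPRMT6. Libraries of a group differed by about 1 CPM or less, and the groups lay apart. TEAD4 fell to 68.4% of NC, with a log2 fold change of -0.55 (SE 0.0921, adjusted p = 0.00979, edgeR). The call held in each fit without 1 library, and with both libraries numbered 2 left out the log2 fold change was -0.51 (adjusted p = 0.0824).

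TEAD1 (ENSG00000187079, chromosome 11, 12674591 to 12944483, plus strand) was at 121, 180 and 158 CPM in NC and at 109, 46.7 and 124 CPM in shPRMT6. The value of shPRMT6 replicate 2 was far below the other shPRMT6 libraries, and NC replicate 1 overlapped with shPRMT6. Its log2 fold change of -0.71 was nominally larger than that of TEAD4, but the SE was 0.354 and the 95% interval ran from -1.56 to 0.13 (adjusted p = 0.217, edgeR). Without shPRMT6 replicate 2 it was -0.39 (adjusted p = 0.231, edgeR).

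TEAD3 (ENSG00000007866, chromosome 6, 35473597 to 35497076, minus strand) was at 27.2, 10.1 and 28.8 CPM in NC and at 26.3, 8.42 and 24.0 CPM in shPRMT6. Replicate 2 of each group was far below the others, a range of 2.85-fold in NC and 3.12-fold in shPRMT6. The log2 fold change was -0.17 (SE 0.525, 95% interval from -1.42 to 1.09, adjusted p = 0.861, edgeR). The value changed sign in 3 of the fits without 1 library, to 0.0074 without NC replicate 1, 0.07 without NC replicate 3 and 0.19 without shPRMT6 replicate 2. Without both libraries numbered 2 it was -0.15 (SE 0.107, adjusted p = 0.424, edgeR).

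TEAD2, the remaining family member, was at 12.4, 9.35 and 10.8 CPM in NC and at 8.29, 7.44 and 9.15 CPM in shPRMT6 without overlap (log2 fold change -0.39, SE 0.146, adjusted p = 0.121, edgeR). By mean FPKM in NC, TEAD1 was the highest of the family at 12.1 ± 2.42, followed by TEAD3 at 6.07 ± 2.87, TEAD4 at 5.74 ± 0.123 and TEAD2 at 3.05 ± 0.414 (SD, n = 3). TEAD3 and TEAD4 did not differ beyond their spread in NC. TEAD1 held 36.4%, 55.8% and 42.7% of the summed TEAD FPKM in NC and 39.1%, 30.9% and 42.2% in shPRMT6. The summed TEAD FPKM was 26.9 ± 2.21 in NC and 19.1 ± 6.27 in shPRMT6 (SD, n = 3), lower in every shPRMT6 library (p = 0.1, two-sided exact permutation test, the smallest it can give). Much of this difference of -7.81 FPKM came with shPRMT6 replicate 2, at 11.9 FPKM, and without it the shPRMT6 mean was 22.7 FPKM and the difference -4.21 FPKM, with both remaining libraries still below NC. The log2 ratio of TEAD1 to TEAD4 CPM was 3.28 ± 0.273 in NC and 3.02 ± 0.715 in shPRMT6 (SD, n = 3), and the groups overlapped (p = 0.7, two-sided exact permutation test).

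The VGLL proteins compete with YAP and TAZ for the TEAD factors. VGLL4, a known antagonist of YAP at TEAD, was at 49.0, 51.3 and 47.3 CPM in NC and at 79.0, 73.3 and 81.6 CPM in shPRMT6. Every shPRMT6 library was above every NC library, and VGLL4 rose with a log2 fold change of 0.66 (SE 0.0706, adjusted p = 0.00213, edgeR). It was called in every alternative. Exons of ATG7 on the opposite strand overlap 22.1% of the exon bases of VGLL4, and the use of strand in counting is not given in the sources used here. VGLL3 overlapped between groups (log2 fold change 0.03), and VGLL2, at about 0.5 CPM or less, had a log2 fold change of -1.46 (SE 0.445) short of the threshold (edgeR, adjusted p = 0.0670). VGLL1 had 4, 12 and 13 counts in NC and no count in any shPRMT6 library, and it was under the filter. For each library taken alone, no count allows an expected count of up to 3. In all, 2 of the 7 tested genes of the TEAD and VGLL list were called, TEAD4 downward and VGLL4 upward, beside 18.6% of all genes, and the median log2 fold change was -0.39.

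Of the 5 target genes, ANKRD1 was not tested, and AMOTL2 alone of the others passed, beside 18.6% of all genes called. AMOTL2 (ENSG00000114019, chromosome 3, 134355874 to 134375479, minus strand), an angiomotin family member that binds YAP and holds it in the cytoplasm, was at 18.2, 17.1 and 21.1 CPM in NC and at 12.0, 9.78 and 11.5 CPM in shPRMT6. The lowest NC library was well above the highest shPRMT6 library. AMOTL2 fell to 58.8% of NC, with a log2 fold change of -0.77 (SE 0.127, adjusted p = 0.00928, edgeR). It stayed called in each fit without 1 library and also without both libraries numbered 2, but not when limma was run on unfiltered log2(FPKM + 1), where the log2 fold change on that scale was -0.51 (adjusted p = 0.112). The pseudogene RPL39P5 lies on the same strand over 3.12% of the exon bases of AMOTL2 and shares 1.79% of its 75-base stretches.

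CCN1 and CCN2 are the classic readouts of YAP and TAZ activity. CCN1 (ENSG00000142871, chromosome 1, 85580761 to 85583962, plus strand) was at 31.0, 27.5 and 26.9 CPM in NC and at 23.7, 23.0 and 21.9 CPM in shPRMT6, without overlap. Its log2 fold change of -0.32 (SE 0.0895, 95% interval from -0.53 to -0.10) lay just outside the threshold (adjusted p = 0.0545, edgeR). CCN1 was called in 4 of the alternatives: with DESeq2 (adjusted p = 0.0440), without scaling factors (0.0476) and with limma on log2(FPKM + 1) (0.0307) or log2(FPKM + 0.1) (0.0294), both after a filter on FPKM.

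CCN2 (ENSG00000118523, chromosome 6, 131948176 to 131951373, minus strand) was at 11.8, 11.5 and 11.6 CPM in NC and at 10.6, 9.13 and 8.70 CPM in shPRMT6. The NC libraries were close to each other and all above the shPRMT6 libraries. The log2 fold change was -0.30 (SE 0.111, 95% interval from -0.57 to -0.03) and did not pass after adjustment (adjusted p = 0.115, edgeR), nor in any alternative. The log2 ratio of CCN1 to CCN2 CPM was 1.29 ± 0.0958 in NC and 1.28 ± 0.0962 in shPRMT6 (SD, n = 3, p = 1, two-sided exact permutation test), with overlapping groups.

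Among the other CCN genes, CCN3 was called. CCN3, a family member with growth-restraining roles in several tissues, was at 26.7, 26.4 and 24.4 CPM in NC and at 49.9, 51.1 and 52.3 CPM in shPRMT6. The groups lay far apart relative to their spread. CCN3 rose with a log2 fold change of 0.99 (SE 0.0727, adjusted p = 0.000789, edgeR) and was called in every alternative. CCN4 and CCN5 overlapped between the groups at a few CPM (log2 fold changes 0.19, 95% interval from -0.84 to 1.22, and 0.05, from -0.73 to 0.82), and CCN6 had 6 counts in shPRMT6 replicate 1 and none elsewhere. Of 5 CCN genes tested, 1 was called, beside 18.6% of all genes.

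LATS2 (ENSG00000150457, chromosome 13, 20973032 to 21061547, minus strand) was at 13.9, 11.3 and 12.5 CPM in NC and at 12.0, 11.9 and 12.5 CPM in shPRMT6. The groups overlapped fully, and the log2 fold change was -0.06 (SE 0.109, 95% interval from -0.32 to 0.21, adjusted p = 0.774, edgeR). Without NC replicate 1 it was 0.020. ANKRD1 (ENSG00000148677, chromosome 10, 90912096 to 90921276, minus strand) had 6, 4 and 4 counts in NC and 8, 0 and 18 counts in shPRMT6. It was under the filter on low counts and was not tested, and a difference was not detectable at these counts. By mean FPKM in NC, the targets ran in the order CCN1 (6.47 ± 0.435), CCN2 (4.19 ± 0.0433), AMOTL2 (2.64 ± 0.313), LATS2 (1.89 ± 0.185) and ANKRD1 (0.0315 ± 0.0106, SD, n = 3), with no overlap between neighbours.

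**Figure D3:**
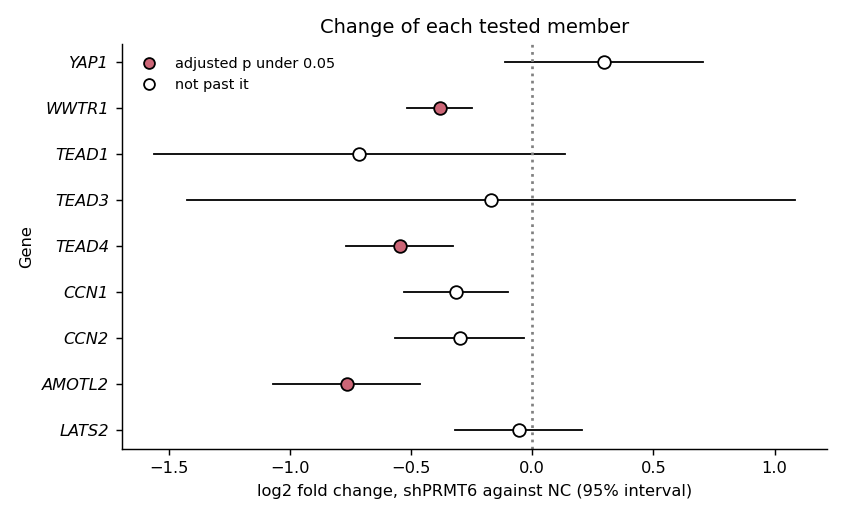
Log2 fold change of the 9 tested genes in shPRMT6 against NC, with 95% intervals from the edgeR fit and filled circles for genes at an adjusted p under 0.05. WWTR1 (-0.38), TEAD4 (-0.55) and AMOTL2 (-0.77) are filled, and the intervals of TEAD1 and TEAD3 are the widest.

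A wider list of 22 genes used as YAP and TAZ targets, which includes CCN1, CCN2, ANKRD1, AMOTL2 and LATS2, held called genes in both directions. Of the 21 tested, 5 were called, 3 lower and 2 higher, beside 18.6% of all genes called, 9.06% lower and 9.51% higher, and the median log2 fold change was -0.18. Beside AMOTL2, the genes that fell were AXL, a receptor tyrosine kinase (log2 fold change -1.05, SE 0.0518), and FJX1, a secreted protein related to four-jointed (-0.42, SE 0.0818). AXL was at 373, 355 and 366 CPM in NC and at 170, 178 and 179 CPM in shPRMT6. The genes that rose were NT5E, the ecto-5'-nucleotidase CD73 (log2 fold change 0.39, SE 0.0504), and MYOF, a membrane repair protein (0.27, SE 0.0698). NT5E was at 1862, 1967 and 1796 CPM in NC and at 2400, 2502 and 2477 CPM in shPRMT6. Calls of AXL and NT5E held in every alternative. That of FJX1 was lost without NC replicate 3 (adjusted p = 0.0581) or without shPRMT6 replicate 1, 2 or 3 (0.0598, 0.0662 and 0.0648). That of MYOF was lost without NC replicate 1 or 3 (0.0975 and 0.132) or without shPRMT6 replicate 1, 2 or 3 (0.0865, 0.122 and 0.129). With a replicate block, FJX1 and MYOF also missed the threshold (edgeR, adjusted p = 0.0523 and 0.0842). They did so too with limma on unfiltered log2(FPKM + 1) (0.143 and 0.229). MYOF was also not called with a filter of at least 1 count in any library (edgeR, 0.0593) or without both libraries numbered 2 (0.0625). 

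Of the kinases and scaffolds upstream of YAP, 5 of 16 tested genes were called, 3 higher and 2 lower, beside the same shares of all genes, and the median log2 fold change was 0.03. MAP4K4, a kinase that can activate LATS in parallel to MST1 and MST2, was at 237, 263 and 298 CPM in NC and at 378, 468 and 445 CPM in shPRMT6. It rose with a log2 fold change of 0.69 (SE 0.112, adjusted p = 0.00866, edgeR). TAOK3 (log2 fold change 0.51, SE 0.0765) and SAV1, the MST scaffold (0.38, SE 0.0755), rose as well. TAOK1, a kinase upstream of MST1 and MST2 as TAOK3 is, moved the other way (log2 fold change -0.72, SE 0.134), as did WWC3, a relative of the KIBRA scaffold (-0.45, SE 0.0991). The kinase LATS1 (0.19) and its cofactor MOB1B (0.06) overlapped between groups, and MOB1A was lower in every shPRMT6 library without passing (-0.20, SE 0.0560, adjusted p = 0.0524, edgeR). STK4 showed the library pattern of TEAD3: it was at 102, 33.0 and 105 CPM in NC and at 97.6, 24.1 and 108 CPM in shPRMT6, low in replicate 2 of both groups. By edgeR, the call of TAOK1 was lost without shPRMT6 replicate 1 or 2 (adjusted p = 0.0573 and 0.0582). That of SAV1 was lost without NC replicate 3 or without shPRMT6 replicate 1 or 2 (0.0611, 0.0706 and 0.0662), and that of WWC3 without NC replicate 2 or 3 or without shPRMT6 replicate 1 or 2 (0.0514, 0.0797, 0.0786 and 0.0778). Without both libraries numbered 2, MAP4K4, TAOK1, SAV1 and WWC3 missed the threshold (edgeR, adjusted p = 0.0778, 0.0627, 0.0926 and 0.124). TAOK3 stayed called there (0.0313, same test). With limma on unfiltered log2(FPKM + 1), MAP4K4, TAOK3, TAOK1 and WWC3 were not called (adjusted p = 0.142, 0.0634, 0.205 and 0.224). SAV1 also missed the threshold with a replicate block (edgeR, adjusted p = 0.0662). Exons of ATL1 on the opposite strand overlap 14.9% of the exon bases of SAV1.

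Of 9 tested genes of cell polarity and LIM proteins that inhibit LATS, 3 were called, all lower, beside 9.06% of all genes called lower, and the median log2 fold change was -0.14. AJUBA, a LIM protein that binds and inhibits LATS, fell from 20.3, 22.1 and 21.4 CPM in NC to 14.9, 14.0 and 12.8 CPM in shPRMT6 (log2 fold change -0.61, SE 0.0957, adjusted p = 0.00767, edgeR). Without both libraries numbered 2 its adjusted p was 0.0719. The polarity genes LLGL1 (-0.39, SE 0.0853) and SCRIB (-0.28, SE 0.0731) fell by less. The call of LLGL1 was lost without NC replicate 3 (adjusted p = 0.0589, same test) or without shPRMT6 replicate 1, 2 or 3 (0.0625, 0.0937 and 0.0887). That of SCRIB was lost without NC replicate 1 or 3 (0.0640 and 0.119) or without shPRMT6 replicate 1, 2 or 3 (0.0928, 0.145 and 0.112). With a replicate block, LLGL1 and SCRIB also missed the threshold (edgeR, adjusted p = 0.0684 and 0.0876). They did so too without both libraries numbered 2 (0.0901 and 0.138). AJUBA, LLGL1 and SCRIB were not called with limma on unfiltered log2(FPKM + 1) (adjusted p = 0.0507, 0.219 and 0.217). SCRIB was also not called with a filter of at least 1 count in any library (edgeR, 0.0719). The other genes of this list (FAT1, FAT4, DCHS1, DLG5, LIMD1 and WTIP) had log2 fold changes from -0.19 (WTIP) to 0.03 (DCHS1), with overlapping groups. Of the binding partners that restrain YAP, AMOTL2 alone of 4 tested was called, beside 18.6% of all genes. AMOTL1 was lower in every shPRMT6 library (log2 fold change -0.34, SE 0.112, adjusted p = 0.0852, edgeR), PTPN14 overlapped between groups (-0.02), and AMOT was near the detection limit with 0 to 23 counts.

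**Figure D4:**
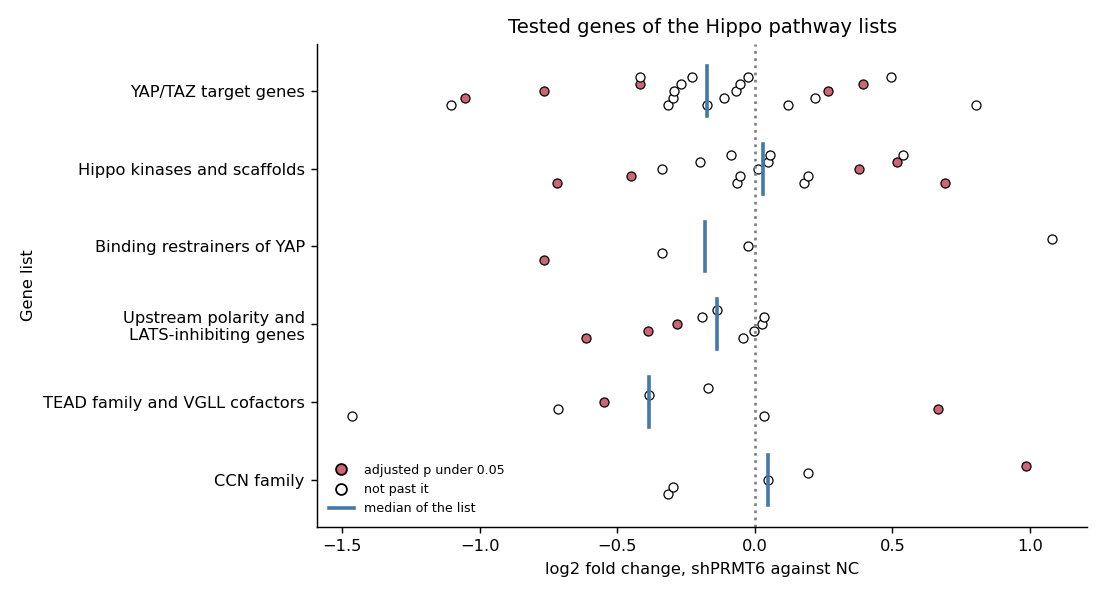
Log2 fold change in shPRMT6 against NC of every tested gene of 6 Hippo pathway lists, with filled circles at an adjusted p under 0.05 (edgeR) and a bar at the median of each list; genes in more than 1 list appear in each. Called genes lie on both sides of 0 among the targets (3 lower, 2 higher) and the kinases (2 lower, 3 higher), and only below 0 among the upstream genes (3).

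Leaving the 10 genes themselves aside, 14 of 50 tested genes of these lists were called, 7 higher and 7 lower, with a median log2 fold change of -0.03. The share called in the background was 18.6%, with 9.51% higher and 9.06% lower.

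An shRNA can also lower transcripts that pair with bases 2 to 8 (the seed) of its antisense strand, and the seed sites were therefore looked up in the 3' UTRs of the group in GENCODE 29. The site of shPRMT6 #2, AGCATCT, was in 4 of the 10 genes, WWTR1, TEAD1, TEAD3 and CCN2, against 20.4% of 13259 tested genes with a 3' UTR of at least 50 bases. The site of shPRMT6 #3, GGAGAGA, was in TEAD1 and TEAD3 (26.0% of tested genes), and that of shPRMT6 #1, TGCCTTA, in YAP1, WWTR1 and TEAD1 (18.4%). TEAD4 and AMOTL2, which fell, held none of the 3 sites. The windows around the shPRMT6 #2 site are printed with the site in capitals, since WWTR1 is the gene that both fell and holds it, at chr3:149520143-149520171 on the minus strand. The others lie at chr11:12938296-12938324, chr11:12939011-12939039 and chr11:12940484-12940512 (TEAD1, plus strand), chr6:35474992-35475020 (TEAD3, minus strand) and chr6:131948937-131948965 (CCN2, minus strand).
WWTR1: ttttactgcagAGCATCTagacaacttag
TEAD1, first site: tcatcagttttAGCATCTctgctccccag
TEAD1, second site: ttacatcagtcAGCATCTtgtggtcccta
TEAD1, last site: taccctgtgaaAGCATCTctcctagagcc
TEAD3: gatgcagggtgAGCATCTcctctccacac
CCN2: tatcatcagatAGCATCTtatacgagtaa
Whether pairing with an shRNA had a part in these values was not tested, and the shRNA of each library is not given. Exons on the opposite strand overlap 9.97% of the exon bases of YAP1 (AP000942.2), 9.45% of those of WWTR1 (WWTR1-AS1) and 8.34% of those of CCN2 (AL133346.1), and for the other 7 genes no gene on the opposite strand overlaps their exons. Shared 75-base stretches were absent in 8 of the 10 genes and made up 0.0461% in YAP1.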

How the data were processed

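The measurement was bulk RNA-seq of U87 cells (NC, n = 3; shPRMT6, n = 3; 56388161 to 75887696 counts per library). The deposited table gave, for each gene, raw read counts made by the authors and also their FPKM values, where every count of 0 has the value 1e-04. HISAT2, HTSeq 0.13.5 and GRCh38 are named in the submitters' processing notes. Within each tested gene of the group, the ratio of FPKM to CPM varied between libraries by 1.98% to 2.26%, so FPKM are no independent check of the counts. Of 60612 genes, 60401 had a symbol and 58394 matched GENCODE 29.

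Counts were tested with edgeR 4.0.16 (TMM scaling, filterByExpr, quasi-likelihood test, Benjamini-Hochberg adjustment over all 18106 genes tested) in R 4.3.3. The SE is the absolute log2 fold change divided by the square root of F. Alternatives were DESeq2 1.42.0, other scaling and filters, a replicate block, limma 3.58.1 on log2(FPKM + 1) and log2(FPKM + 0.1), and leaving out libraries; omitting both libraries numbered 2 was chosen after seeing the data. Exact permutation tests used SciPy 1.17.1. The programs were tested on simulated counts in which 200 genes were changed and every gene had the same dispersion. That is simpler than the uneven replicates here, so it checks the programs and not the calls. No pair of replicates was within sampling noise (chi-square over its degrees of freedom, 48.2 to 78.4).

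The genes and lists were chosen with earlier results of these data known. Named were all 10 genes, PRMT6, every gene of pathway lists of up to 10 genes, and from longer ones the 4 largest called changes in each direction; markers of other cells are given by their sums and by those that define a type. STK4, LATS1, MOB1A and MOB1B were named after their values were seen. Medians and shares of lists carry no test. Proteome data were not analysed here.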

Additional observations from a re-analysis of the deposited data

How the results depend on the processing

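Over all genes tested, same-numbered NC and shPRMT6 libraries did not vary together: their deviations from the group means correlated at -0.01, -0.05 and -0.03. Whether the numbers 1 to 3 pair the libraries is not stated in the sources used here. With the replicate block, 1858 genes were called in place of 3362, 9 in place of 14 pathway genes outside the group, and the same 3 of the group, WWTR1, TEAD4 and AMOTL2. With limma run on unfiltered log2(FPKM + 1), 1073 genes and 5 of those pathway genes were called. Without both libraries numbered 2, 1345 genes, 6 of those pathway genes and 1 of the group (AMOTL2) were called. Across the fits that left out libraries, the number of genes called ran from 1345 to 3183 (1939 without NC replicate 3; 1871, 1755 and 1858 without shPRMT6 replicate 1, 2 and 3), the pathway genes from 6 to 14 (9 without NC replicate 3 and 7 without shPRMT6 replicate 1 or 2), and the called genes of the group from 1 to 3. With 1 library left out at a time, the YAP1 to WWTR1 ratio differed by 0.54 to 0.81 (log2). CCN1 to CCN2 differed by -0.048 to 0.047 (0.04 without NC replicate 1, 0.047 without shPRMT6 replicate 1). TEAD1 to TEAD4 differed by -0.49 to 0.15 (the latter without shPRMT6 replicate 2). The ratios were not computed without both libraries numbered 2. Across all fits that left out libraries, the log2 fold change of TEAD3 ran from -0.52 to 0.19 and that of LATS2 from -0.13 to 0.020. The sign of TEAD3 changed without NC replicate 1 (0.0074), NC replicate 3 (0.07) and shPRMT6 replicate 2 (0.19), and that of LATS2 without NC replicate 1 (0.020). The causes were not tested. YAP1 was called in 0 of 16 alternatives of edgeR, DESeq2 and limma (log2 fold change 0.17 to 0.44, adjusted p from 0.0734 to 0.586). The lowest adjusted p of YAP1 came with the replicate block, where the SE was 0.0706 in place of 0.171 (edgeR). The SE of TEAD3 was 0.0996 there, in place of 0.525. ANKRD1, at up to 18 counts, is limited by depth.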

Other observations

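The low values of TEAD3 and STK4 in both libraries numbered 2 were set beside all genes tested with a mean of at least 1 CPM (13756 genes). A range of at least 2-fold within a group was found for 8.68% of them in NC, 7.63% in shPRMT6 and 3.47% in both. In 52 genes (0.378%) the range was at least 2-fold in both groups with replicate 2 lowest in both, as for TEAD3 and STK4.

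Among 11325 tested genes averaging 1 FPKM or more, compared over the 6 libraries, the genes whose log2 CPM followed YAP1 most closely were LLPHP3 (Pearson's r = 0.989), COPE (0.983) and ISYNA1 (0.978). Those closest to CCN2 were CLK3 (0.997), TIMM10 (0.993) and CCNB1 (0.992). The libraries share the NC and shPRMT6 split, and these values are given as a description.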
